A study of Mus musculus with 38 samples.

Results

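In mouse spleen, 6 genes normally linked to the pancreas were followed: the Reg genes Reg1, Reg2 and Reg3a, the insulin genes Ins1 and Ins2, and the somatostatin gene Sst. They are 6 of the 6512 genes that could be named on the arrays, and each had 1 probe. They were chosen with their scores in this same contrast between irradiated and sham-irradiated mice known, so the scores of all 6 are given as a description with no test of the response. The arrays compared spleen RNA of male mice 3.5 h after 10 cGy of X-rays (10 rad in the labels) with spleen RNA of sham-irradiated mice of the same strain. Both were aged 10 to 14 weeks by the labels, where the study's methods give 8 to 10 weeks. All mice were of inbred strains, with no transgene or other treatment named. The 38 arrays carried the strain labels A/J (8 arrays), B6.C (8), BalbxJ (8), C3H (6), BI6Jx (4) and DBA/2J (4), where the study's text lists Balb/C, C3H/HeJ and C57Bl6/J. Every array held 1 irradiated and 1 control mouse, 19 arrays with the irradiated mouse labelled in Cy5 and 19 with it labelled in Cy3, and an array stands below under its number in the labels.

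Reg proteins are small secreted C-type lectins. Reg1 and Reg2 are made mainly by acinar cells of the exocrine pancreas, the cells that make digestive enzymes, and are named for their discovery in regenerating islets. Reg3a belongs to the Reg3 branch of the family, which is best known from pancreas and gut, where other branch members act on bacteria. Insulin comes from beta cells and somatostatin from delta cells of the islets, so hormones and Reg genes mark different compartments of one organ, and the somatostatin gene is also active in nerve and gut endocrine cells. None of the 6 genes is known as a marker of spleen cells.

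The 3 Reg genes lie side by side on chromosome 6 of GRCm38.p6, on the plus strand, in a cluster of 6 Reg genes (Reg3b, Reg3d, Reg3a, Reg2, Reg1 and Reg3g) that spans 97.99 kb. Reg3a (chr6:78380709-78383839), Reg2 (chr6:78405155-78408099) and Reg1 (chr6:78425983-78428668) take up 47.96 kb of it. The hormone genes are scattered, with Ins1 at chr19:52264297-52265015, Ins2 at chr7:142678656-142679726 and Sst at chr16:23889573-23891342. These positions come from RefSeq and not from the deposited table. The 250 bases before the start in RefSeq's promoter windows, on the same build, are printed for 4 members, to set the promoters of Reg1 and Reg2, which varied together, beside those of hormones. The start used for Sst lies inside the listed range of the gene, which reaches further upstream and also covers a predicted transcript.
Reg1 (chr6:78425733-78425982, plus strand): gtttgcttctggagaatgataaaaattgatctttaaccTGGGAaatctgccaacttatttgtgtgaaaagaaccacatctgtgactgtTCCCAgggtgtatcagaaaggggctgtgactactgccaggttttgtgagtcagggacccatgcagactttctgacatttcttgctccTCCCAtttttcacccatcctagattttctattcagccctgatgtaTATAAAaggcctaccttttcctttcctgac
Reg2 (chr6:78404905-78405154, plus strand): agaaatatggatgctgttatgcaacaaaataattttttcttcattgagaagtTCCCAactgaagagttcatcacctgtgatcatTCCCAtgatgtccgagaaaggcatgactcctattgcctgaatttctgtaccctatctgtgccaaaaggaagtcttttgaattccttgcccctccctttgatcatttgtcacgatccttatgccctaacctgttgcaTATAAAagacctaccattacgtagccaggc
Ins1 (chr19:52264047-52264296, plus strand): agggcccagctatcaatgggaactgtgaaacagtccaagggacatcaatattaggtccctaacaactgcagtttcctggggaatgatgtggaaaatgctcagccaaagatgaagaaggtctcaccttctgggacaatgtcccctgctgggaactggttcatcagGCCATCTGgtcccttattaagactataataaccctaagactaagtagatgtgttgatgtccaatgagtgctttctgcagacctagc
Sst (chr16:23890845-23891094, minus strand): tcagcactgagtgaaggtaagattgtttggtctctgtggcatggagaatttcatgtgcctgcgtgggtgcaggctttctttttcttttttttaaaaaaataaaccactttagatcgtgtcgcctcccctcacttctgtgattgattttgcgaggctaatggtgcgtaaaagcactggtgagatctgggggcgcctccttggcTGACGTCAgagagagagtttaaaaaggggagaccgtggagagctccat
Capitals in Reg1 and Reg2 mark the TATA box letters TATAAA and the letters TGGGA, the second element of the site of PTF1, an acinar transcription factor, on either strand (TCCCA where it lies on the other strand). Capitals in Ins1 mark the insulin E box letters GCCATCTG, and those in Sst the cAMP response element TGACGTCA. TATAAA began 30 bases before the start in both Reg1 and Reg2, and 12.4% of 32851 promoters of this length held it on either strand. TGGGA occurred 3 times in Reg1, 2 times in Reg2 and once in Reg3a, but also 3 times in Ins1, where it is not in capitals, and 55.1% of all promoters held it. The cAMP response element of Sst was in 1.55% of promoters and the insulin E box of Ins1 in 1.11%. CANNTG, the general E-box, which overlaps the insulin E box, was in 66.2%, and TTCNNNGAA, a STAT site, was in none of the 5 promoters matched and in 7.02% of all. Aligned end to end, Reg1 and Reg2 were identical at 56.9% of columns, Reg2 and Reg3a at 52.7%, Reg1 and Reg3a at 49.5%, and Ins1 and Sst at 45.0%. Between a Reg gene and Ins1 or Sst identity ran from 44.1% (Reg2 and Sst) to 47.8% (Reg3a and Ins1), little below that of Reg1 and Reg3a. These matches are letters in a window and no measurement of binding.

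The deposited value of each spot is a signed score whose log base, scale and dye direction the sources used here do not give. Each array was therefore centred on its own median, and scores of arrays with irradiated RNA in Cy3 had their sign turned. This gives a response to irradiation the same sign on every array only if all arrays hold the ratio in the same dye direction. A positive score then means more signal in irradiated mice if the ratio is Cy5 over Cy3 and less if it is Cy3 over Cy5. The text speaks only of the positive and the negative side, and no score is a fold change. Values were present for 10941 to 19860 probes per array. In 15 of the 38 arrays at least 1 correlation with an array of the same dye orientation lay under -0.3, and arrays 97 (BI6Jx), 50 and 53 (both B6.C) had at least 3 such correlations, so the direction of these 3 is not settled. Reg1 had a value on 32 arrays, Reg2 and Ins2 on 35, Ins1 on 37 and Reg3a and Sst on all 38, where the median probe had 32. The lymphoid and myeloid genes of the spleen had values on a median of 34 arrays, but a ratio of dyes gives no level, so how much of any of these RNAs the spleens held cannot be read from the scores.

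Reg1 had the lowest mean of the 6 genes. Its strain values, in which both dye orientations weigh equally, were -0.764 in A/J, -0.613 in B6.C, -1.61 in BalbxJ, 0.996 in C3H, -0.578 in BI6Jx and -1.09 in DBA/2J. Their mean was -0.61 ± 0.87 (SD, n = 6 strains), and 0.779% of the 14513 tested probes had a lower mean. All strains but C3H lay on the negative side. Of single arrays, 21 of 32 were negative. The negative side held 11 of 15 arrays with irradiated RNA in Cy5 and 10 of 17 with it in Cy3, so the lean was present in both orientations.

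Within strains Reg1 spread widely. In BalbxJ it was between -3.04 and 1.37 with a median of -1.87, and 6 of 7 arrays were negative. In DBA/2J the 4 arrays read -2.03, -1.20, -1.06 and -0.0628, all negative. The 4 arrays of C3H read -1.90, -0.624, 0.200 and 6.30, and the positive strain value rests on the last of these, array 26, the highest Reg1 score of the series. In BI6Jx the scores were -6.07, -0.0373, 1.13 and 2.67, with the lowest Reg1 score of the series on array 97. The 5 arrays of A/J read -4.30, -1.78, 0.436, 0.743 and 0.812, and the 8 of B6.C ran from -2.63 to 2.33 with a median of -1.11. In every strain but DBA/2J arrays thus stood on both sides. Without array 97 the mean over strains was -0.309, and without C3H it was -0.93. With the sign of the unsettled arrays 50, 53 and 97 turned it was -0.0839, so most of the size of the mean depends on the direction of these arrays. The SD of Reg1 over arrays was larger than that of 95.4% of tested probes.

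Reg2, the near neighbour of Reg1, leaned the same way but less. Its strain values were -0.484 in A/J, -0.330 in B6.C, -0.760 in BalbxJ, -0.229 in C3H, 0.465 in BI6Jx and -0.0839 in DBA/2J, with a mean of -0.24 ± 0.41 (SD, n = 6 strains). BI6Jx was the single strain on the positive side, and 12.0% of tested probes had a lower mean. Over arrays Reg2 ran from -4.36 (array 45, A/J) to 3.49 (array 36, BalbxJ), with 21 of 35 arrays negative. The BalbxJ arrays had a median of -1.76, and without array 36 their highest score was 0.00205. The mean over strains was -0.0938 without array 45 and -0.383 without array 36. In C3H the range was narrower, from -1.35 to 0.967.

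Reg3a was split. Its strain values were -0.0460 in A/J, -0.648 in B6.C, -1.10 in BalbxJ, 0.0951 in C3H, -0.617 in BI6Jx and 0.330 in DBA/2J, with a mean of -0.33 ± 0.54 (SD, n = 6 strains), and 5.66% of tested probes had a lower mean. Its lean was uneven between the 2 orientations. With irradiated RNA in Cy5, 13 of 19 arrays were negative (mean -0.610), against 8 of 19 with it in Cy3 (mean -0.175). In BalbxJ the 4 Cy5 arrays were all negative and averaged -1.81, and the 4 Cy3 arrays averaged -0.387. In C3H all 3 Cy5 arrays were positive. With the sign of arrays 50, 53 and 97 turned the mean of Reg3a was 0.0327, on the other side, and without BalbxJ it was -0.177.

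**Figure D1:**
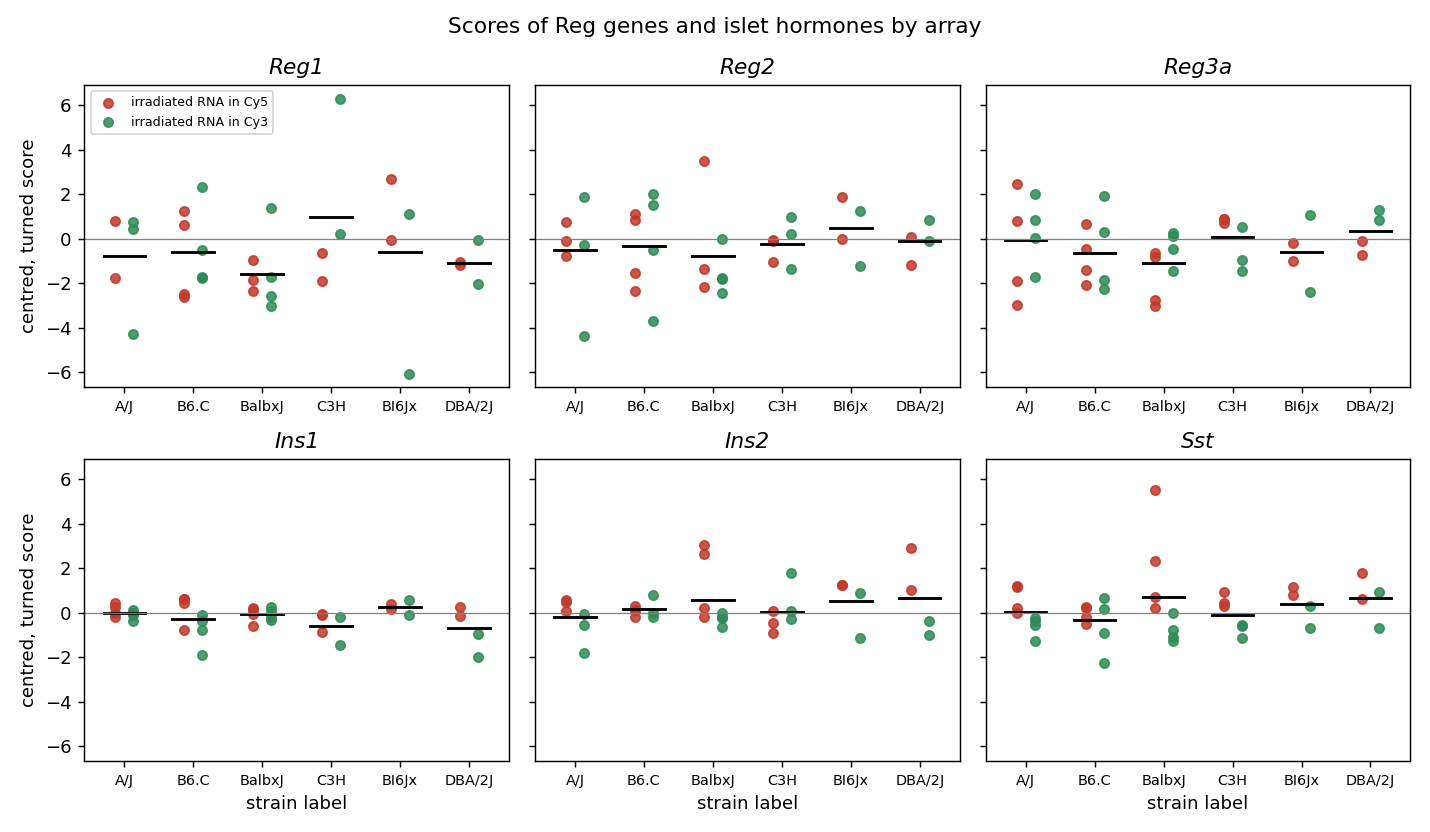
Centred and turned score (vertical axis, unit of the deposited score) of each gene on each array, by strain label, with the dye of the irradiated RNA in colour and a bar at the mean of both orientations. Reg1, Reg2 and Reg3a spread to both sides, from -6.07 to 6.30 for Reg1, while Ins1 stays between -1.97 and 0.626 and most Sst points in red lie above those in green.

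Among the hormones, Ins1 leaned to the negative side about as far as Reg2, and Ins2 and Sst to the positive side. Ins1 had the smallest spread of the 6, with an SD over arrays larger than that of 11.4% of tested probes. Its strain values were 0.0123 in A/J, -0.279 in B6.C, -0.0503 in BalbxJ, -0.578 in C3H, 0.259 in BI6Jx and -0.700 in DBA/2J (mean -0.22 ± 0.37, SD, n = 6 strains). Of single arrays 22 of 37 were negative, 9 of 19 with irradiated RNA in Cy5 and 13 of 18 with it in Cy3. Its lowest scores were -1.97 (array 70, DBA/2J) and -1.91 (array 54, B6.C), both on arrays where Reg3a was positive and Reg1 negative. Irradiated RNA was in Cy3 on both.

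Ins2, the second insulin gene of the mouse, lay on the positive side in 5 strains. Its strain values were -0.206 in A/J, 0.151 in B6.C, 0.585 in BalbxJ, 0.0446 in C3H, 0.548 in BI6Jx and 0.648 in DBA/2J (mean 0.295 ± 0.348, SD, n = 6 strains). The highest scores were 3.06 and 2.64 (arrays 36 and 35, BalbxJ) and 2.93 (array 34, DBA/2J), all with irradiated RNA in Cy5. In BalbxJ the median was -0.0823, so the strain value rests on those 2 arrays. The coding sequences of the insulin genes are near copies of each other and 1 probe may catch both RNAs, which was not tested. Ins1 and Ins2 correlated at r = 0.248 and rho = 0.426 (34 arrays).

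Sst was the hormone with the widest range, from -2.27 (array 52, B6.C) to 5.51 (array 36, BalbxJ). Its strain values were 0.0231 in A/J, -0.320 in B6.C, 0.708 in BalbxJ, -0.0939 in C3H, 0.397 in BI6Jx and 0.663 in DBA/2J (mean 0.23 ± 0.42, SD, n = 6 strains). Here the side followed the dye. With irradiated RNA in Cy5, 16 of 19 arrays were positive, against 4 of 19 with it in Cy3, and in BalbxJ and C3H every Cy5 array was above 0 and every Cy3 array below it. Without BalbxJ the mean over strains was 0.134.

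The share of the dye can be read from the scores before the sign is turned, where a bias between dyes adds up and a response cancels. This contrast was not used to choose the genes and was tested with limma over all probes, with Benjamini-Hochberg adjustment. Unturned, Sst averaged 0.696 (SE 0.179) over strains, was positive in all 6 of them and on 31 of 38 arrays, and had an adjusted p of 0.0826. Ins2 averaged 0.489 (SE 0.242, adjusted p = 0.264, positive on 25 of 35 arrays) and Ins1 0.269 (SE 0.154, adjusted p = 0.328, positive on 23 of 37). The unturned means of Reg1, Reg2 and Reg3a were -0.0727, 0.144 and -0.201 (adjusted p = 0.932, 0.655 and 0.574 in limma). None of the 6 passed after adjustment. Before adjustment Sst alone had a p under 0.05, as 24.2% of all tested probes did, so such a lean was common on these arrays. Over tested probes, the mean deposited scores of Cy5 and of Cy3 arrays, unturned, correlated at r = 0.635. A large part of the scores thus kept its sign between orientations, and its source was not tested.

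**Figure D2:**
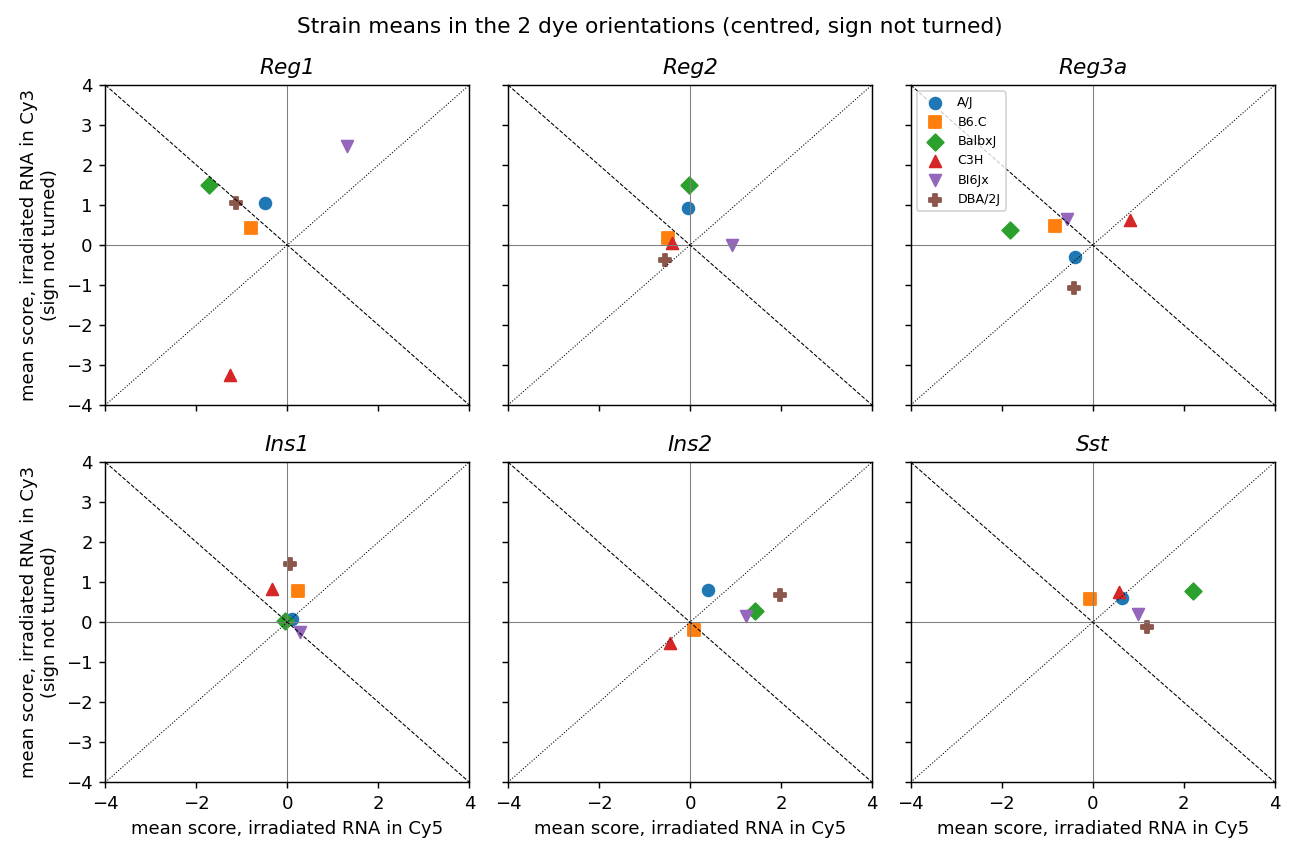
Mean score of each strain with irradiated RNA in Cy5 (horizontal) and in Cy3 (vertical), centred, sign not turned, 1 panel per gene. A response puts a strain on the dashed line and a bias between dyes on the dotted one: 4 of the 6 Reg1 points lie near the dashed line, and the Sst points lie mostly to the upper right, with an unturned mean of 0.696.

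Over all probes, no response common to the strains was detected. A mean over 6 strains can miss a response of single strains, and the study's own mixed model did report differentially expressed genes. In the limma fit of the 6 strain values 0% of 14513 probes had an adjusted p under 0.05, and 8.21% had an unadjusted p under 0.05. Because the genes were chosen on this contrast, their places among all probes, given above, describe them and are no evidence of a response. The same holds for sign: none of the 6 genes kept one sign in all 6 strains, and 4.27% of tested probes did.

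Across arrays Reg1 and Reg2 varied together, and Reg3a followed them only loosely. Reg1 and Reg2 both had values on 31 arrays and stood on the same side on 25 of them, with r = 0.571 and rho = 0.718. Without the 2 arrays farthest from the median of Reg1, among them array 26 of C3H, r was 0.705. The value was 0.657 with irradiated RNA in Cy5 (15 arrays), 0.571 with it in Cy3 (16 arrays), and 0.687 with the mean of each strain and orientation removed. In B6.C, where both genes had values on all 8 arrays, r was 0.816. Array 45 of A/J shows the pattern, with Reg1 at -4.30, Reg2 at -4.36 and Reg3a at -1.70, and array 48 of B6.C shows it on the other side, with Reg1 at 2.33 and Reg2 at 2.00.

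Reg3a followed Reg1 (r = 0.319, 32 arrays) and Reg2 (r = 0.333, 35 arrays) more loosely. Both relations were carried by the arrays with irradiated RNA in Cy3 (r = 0.440 with Reg1 and 0.654 with Reg2). The Cy5 arrays gave r = 0.0959 with Reg1 and -0.0464 with Reg2. By the study's methods every pair of mice was hybridized again with dyes swapped, so arrays share mice, though the labels do not say which. The points are therefore not independent, and the correlations are given without p.

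**Figure D3:**
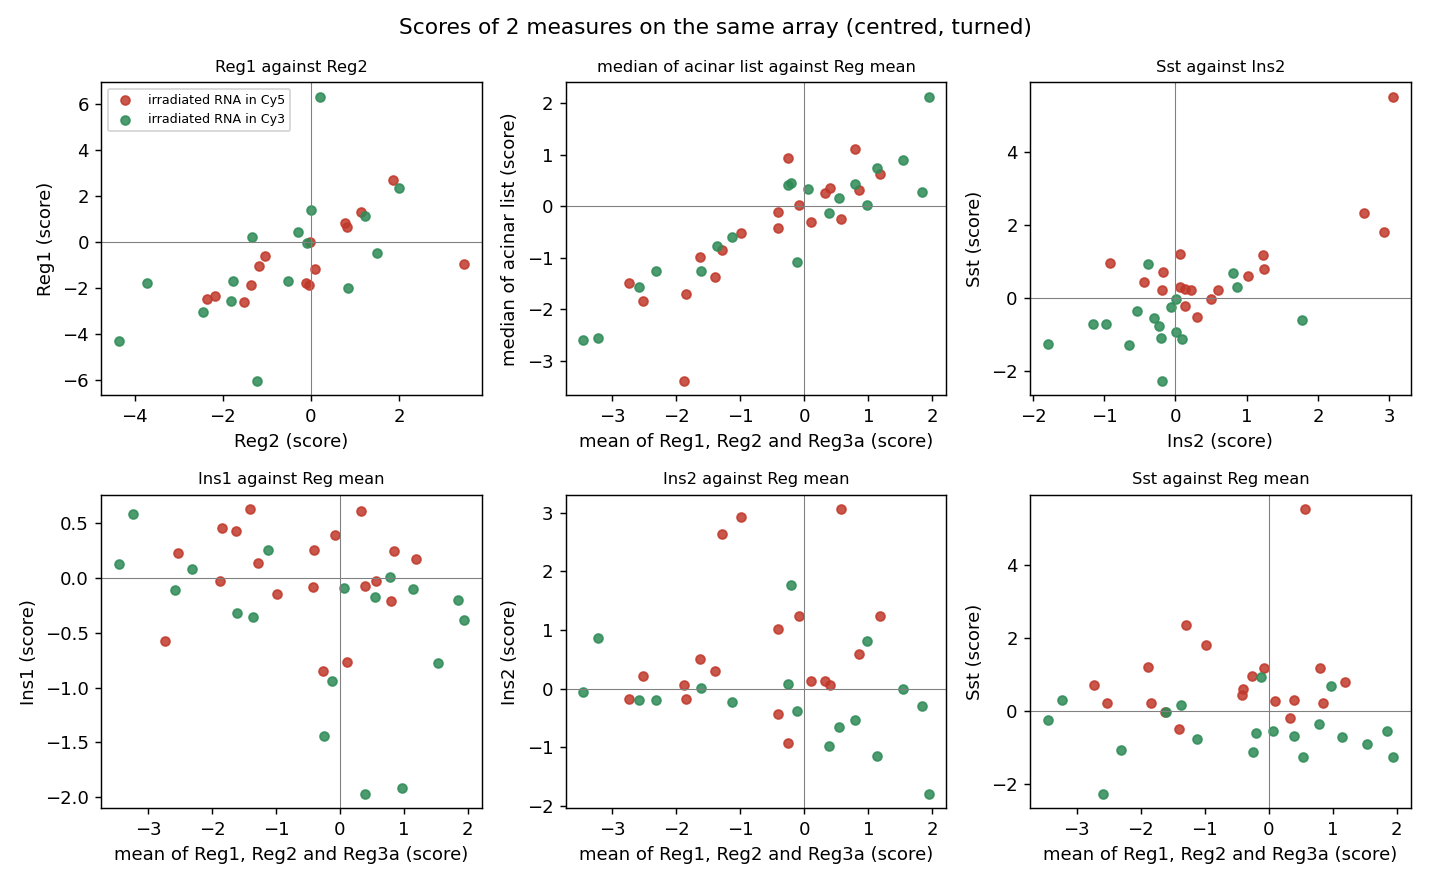
Pairs of centred, turned scores on the same array, 1 point per array, with the dye of the irradiated RNA in colour. Reg1 against Reg2 (r = 0.571) and the acinar list against the Reg mean (r = 0.873) form bands, and the 3 lower panels, each hormone against the Reg mean, do not (r = -0.323, -0.118 and 0.0209).

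The islet hormones did not follow the Reg genes. With the mean of the Reg genes measured on an array, called the Reg mean, r was -0.323 for Ins1 (37 arrays), -0.118 for Ins2 (35 arrays) and 0.0209 for Sst (38 arrays), with rho of -0.333, -0.131 and -0.0964. The hormone stood on the same side as the Reg mean on 14 of 37, 17 of 35 and 16 of 38 arrays. Within strains Ins1 gave r = -0.539 in A/J, -0.566 in B6.C and 0.0873 in BalbxJ (8 arrays each). The sign changed for Ins2, at r = -0.532 in A/J (rho = -0.200, 6 arrays) and 0.530 in B6.C (rho = 0.5, 7 arrays), and for Sst, at r = -0.279 in A/J and 0.394 in B6.C (8 arrays each). Among single pairs the highest was Reg2 with Sst (r = 0.362, 35 arrays), with rho of 0.137 and both genes at their highest score on array 36 of BalbxJ.

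This depends on the centring. With the scores as deposited the 3 correlations were 0.650, 0.646 and 0.621, but the array medians ran from -3.16 to 3.95 and moved nearly every probe together: the median r of the Reg mean with all 17590 probes compared was 0.694, and 94.3% of them reached 0.5. The hormones were thus below the median probe even there. After centring the median probe had r = 0.0135 and 2.67% reached 0.5.

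The hormones shared a pattern of their own only in part. Ins2 and Sst gave r = 0.694 and rho = 0.528 over 35 arrays, with r = 0.730 in Cy5 arrays and 0.332 in Cy3 arrays, and r was 0.527 without the 2 arrays farthest from the median. Both leaned with the dye, and both also correlated with many other probes: 27.4% of all probes had r of at least 0.5 with Ins2 and 25.6% with Sst, against 3.29% with Ins1. The 5 named genes most like Sst were Pld3, Pitpnm1, Acpp, Mre11a and Cbl (r from 0.953 to 0.961). Those most like Ins2 were Glrp1, Icos, Rasgrp1, Tmem186 and Klk6 (r from 0.912 to 0.947). For Ins1 they were Homer1, Tg, Klhl10, Terf2 and Krtap14, led by Homer1 at r = 0.842. No gene of the islet list was among these 15. Only 17 islet genes stood among the 5269 to 5300 named probes compared, so their absence from so short a list says little.

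The Reg mean moved with the digestive enzymes. Of 37 acinar genes listed, 22 were on the arrays and 16 were tested, and 15 of the 16 had a negative mean over strains, with a median of -0.335. With the sign of arrays 50, 53 and 97 turned the median was -0.110 with 13 of 16 negative, and with scores as deposited it was -0.214 with 14 of 16 negative. Over all tested probes 48.7% were positive and the median was -0.00675. The largest means were those of the trypsinogens Prss2 (-0.732) and Prss1 (-0.678), of Gp2, the main membrane glycoprotein of zymogen granules (-0.669), and of chymotrypsinogen Ctrb1 (-0.628). The trypsinogen genes are near copies, so their probes may share RNA. The one positive acinar gene was the transcription factor gene Bhlha15 at 0.126.

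Array by array, the median of the acinar genes and the Reg mean gave r = 0.873 and rho = 0.854 over 38 arrays, and stood on the same side on 31. The value was 0.830 in Cy5 arrays, 0.912 in Cy3 arrays and 0.889 without the 2 arrays farthest from the median of the acinar scores. By gene r was 0.803 for Reg1, 0.685 for Reg2 and 0.654 for Reg3a, each above the r of that gene with either other Reg gene. By rho the order was reversed for Reg2, at 0.666 with the acinar median and 0.718 with Reg1. A median over many probes is set here against single probes, so the sizes are not directly comparable. The hormones gave -0.283 (Ins1), -0.141 (Ins2) and -0.101 (Sst). Within strains the Reg mean and the acinar median gave 0.915 in A/J, 0.950 in B6.C and 0.946 in BalbxJ (8 arrays each), but 0.00360 in C3H (6 arrays), where Reg1 reached 6.30 on array 26 and the acinar median there was 0.268. The acinar median was lowest on arrays 46 and 45 of A/J (-3.40 and -2.60) and 97 of BI6Jx (-2.55), and the Reg mean of these arrays was -1.88, -3.46 and -3.23. It was highest on array 88 of A/J (2.13), which also had the highest Reg mean (1.95). On array 46 the Reg mean was Reg3a alone and on array 88 that of Reg2 and Reg3a, since the other Reg genes had no value there. The part of acinar RNA in the Reg scores was not tested. In bulk RNA, fewer cells of a type and less RNA per cell cannot be told apart.

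**Figure D4:**
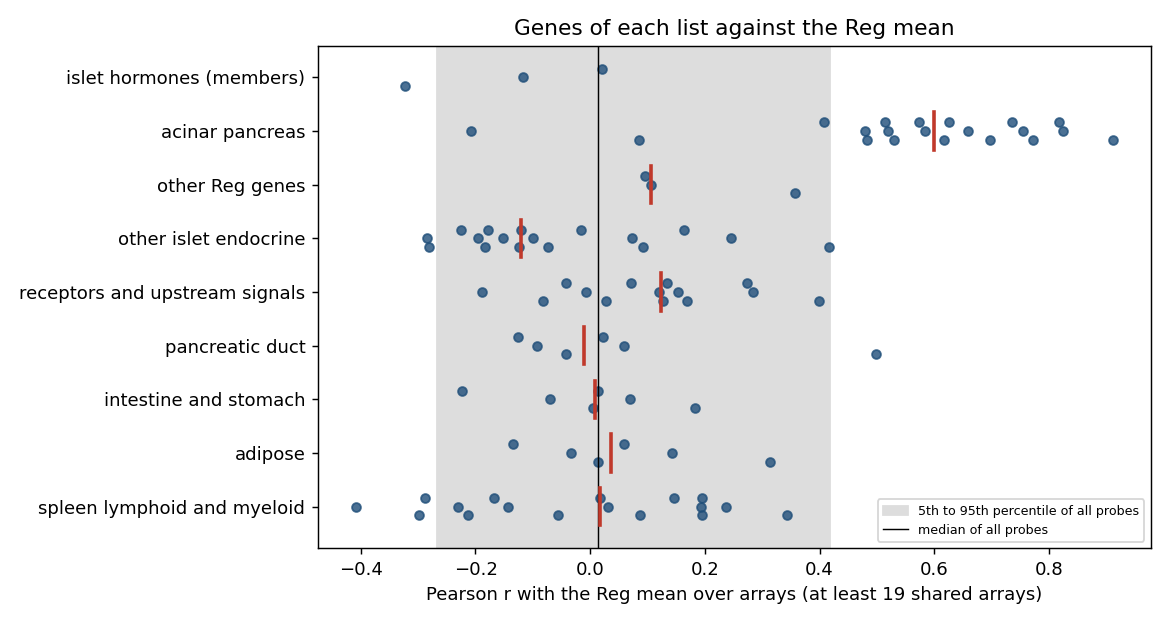
Pearson r of each gene with the Reg mean over arrays (horizontal axis), by gene list, with a red bar at each list's median and a grey band from the 5th to the 95th percentile of all probes. The acinar genes lie to the right, with a median of 0.600, and the other lists lie mostly within the band.

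Among single genes Dmbt1, a secreted scavenger receptor glycoprotein on the acinar list, was most like the Reg mean (r = 0.911, 29 arrays). Uba2, a subunit of the SUMO-activating enzyme, followed at 0.866 and Mep1a, the protease meprin alpha, at 0.853. The transcription factor gene Sp1 (0.841), Cox7a2l (0.840), Dph6 (0.838), Amy1 (0.832), Lect2, the sweet taste receptor gene Tas1r2 and the death receptor gene Tnfrsf25 (0.826) made up the first 10 with a gene symbol. Among all probes compared, with a symbol or without, Dmbt1 had rank 1, Uba2 rank 4 and Tnfrsf25 rank 23. Amy1 encodes an amylase, and its probe may catch the near-identical pancreatic amylases. Of the 10, Dmbt1 alone is on the acinar list, and the 95th percentile of all probes was 0.419. Prss1 (0.825), Clps, the cofactor of pancreatic lipase (0.818), and Prss2 (0.772) came next among acinar genes, and 75% of the 20 acinar genes compared reached 0.5. Of the acinar transcription factor genes compared, Bhlha15 gave 0.0855 and Rbpjl -0.209.

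The rest of the Reg family was measured less completely. Reg3b and Reg3g, antibacterial lectins of the gut in mice, had values on 32 and 27 arrays, and Reg4, which lies outside the cluster, on 29. Reg3b averaged -0.0821 over strains and Reg4 0.351, but Reg3b had an SD of 1.06 over strains, with 4 strains positive, and without array 27 of C3H its mean was 0.223. Reg3g, at -3.50 on array 45 of A/J, gave r = 0.483 with Reg1 (22 arrays) and 0.395 with Reg2 (26 arrays). Reg3b gave r = 0.306 and rho = 0.452 with Reg1 (27 arrays, array 27 not among them). With Reg2 it gave r = 0.179 and rho = 0.560 (30 arrays), and r = 0.486 without array 27. On array 27 of C3H both Reg3 genes were far negative, Reg3b at -11.7 and Reg3g at -3.92, while Reg2 was at -0.0972 and Reg3a at 0.892.

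The other islet genes gave no matching picture. Of 37 listed, 24 were on the arrays and 16 were tested, with 11 positive, 5 negative and a median of 0.0722. Among them were Ucn3, a peptide of beta cells (0.324), Nkx2-2, a transcription factor gene of endocrine cells (-0.278), and Chga, chromogranin A of secretory granules (0.234). Unturned, where a bias between dyes adds up, Ucn3, Nkx2-2 and Chga averaged 0.863, -0.446 and 0.385. The median r of the islet genes with the Reg mean was -0.120 (17 genes). Iapp, which beta cells release with insulin, had values on 12 arrays and Ppy on 15, too few to be tested. The median r of these islet genes was 0.00229 with Ins1, 0.0810 with Ins2 and 0.261 with Sst, against medians of 0.0220, 0.0431 and -0.0485 over all probes. Other lists stood higher with Ins2 and Sst. Duct genes had medians of 0.317 and 0.442, and genes of intestine and stomach 0.416 and 0.556 (6 genes each).

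Among receptors and upstream signals 4 of 11 tested genes were positive and 7 negative, with a median of -0.0399. The somatostatin receptor genes stood apart from each other, Sstr3 at 0.940 ± 1.08 and Sstr4 at -0.276 ± 0.402 (SD, n = 6 strains). Unturned, where a bias between dyes adds up, Sstr3 averaged 2.03 and Sstr4 0.347, so both leaned further with the dye. Glp1r and Gcgr, the receptors of GLP-1 and glucagon, averaged 0.192 and -0.172. Extl3, proposed as a receptor of Reg proteins, averaged 0.00764, and Il22, whose product induces Reg3 genes in mouse gut, -0.0796. Duct genes (3 tested) had a median of 0.0370, genes of intestine and stomach (2 tested) 0.227, and adipose genes (6 tested) -0.127 with 5 on the negative side. The spleen's own lymphoid and myeloid genes were even, with 7 positive and 7 negative and a median of 0.0212, among them Pax5 (0.631), Cd79b (0.421), Cd4 (0.374) and Hba-a1 (-0.260). In the same order, the unturned means of these genes were 1.15, 0.0173, 1.21 and -0.369. The median r of the lymphoid and myeloid genes with the Reg mean was 0.0173 (17 genes).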

How the data were processed

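Spleen RNA was measured on 38 two-colour arrays of long oligonucleotides. Per the study's methods, poor or dim spots were removed, local background was subtracted and Lowess was applied within arrays. The authors deposited a signed score per spot and array. For that score the sources used here state neither scale nor log base, centring or dye direction. Log ratios had been foreseen, and limma was run on the scores as they are.

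Of 23232 spots, blank, buffer and Alien control spots (864, 275 and 96) were left out and spots of 1 probe were averaged. Genes were named by RefSeq accession (GRCm38.p6), which gave 6518 of 21618 probes a single symbol. Arrays were centred on their medians and turned by dye. The 14513 probes with at least 19 values, and with both orientations in each strain, were tested with limma 3.58.1 in R 4.3.3 (lmFit, eBayes, Benjamini-Hochberg adjusted p under 0.05), with the strain as unit since repeated pairs of mice cannot be told from the labels. The p-values measure the spread between strains. The step was tested on simulated data. The number of arrays limits the precision, and depth does not apply.

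The members and the 8 gene lists were chosen with earlier results of these data known. Named genes are the members, up to 4 tested genes per list with the largest mean, and the genes most correlated with the Reg mean (10) or with a hormone (5 each). Reg3g, Dmbt1, Clps, Bhlha15, Rbpjl, Extl3, Il22, Iapp and Ppy were named after their values were seen. The result of 1 gene under this rule is not reported here. Alternatives were other centring, scaling, signs, units, filters and left-out arrays or strains. The correlation with the acinar median and the values of Reg3b without array 27 were added after seeing the data.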

Additional observations from a re-analysis of the deposited data

Results flagged for a closer look

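Among 36 groups of 1 gene in 1 strain, 3 had an array far from the others, where chance alone gives about 1 in 20. Reg2 in BalbxJ was 3.49 on array 36, where the other 6 arrays lay between -2.44 and 0.00205. Ins2 in C3H was 1.77 on array 24, with the other 5 between -0.919 and 0.0854. Ins2 in BI6Jx was -1.16 on array 95, with the other 3 between 0.871 and 1.24. Array 36 also held the highest score of Sst (5.51) and of Ins2 (3.06). The cause was not tested for any of them.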

How the results depend on the processing

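No paired analysis was possible because repeated pairs of mice cannot be told from the labels. With the signs not turned, which measures the bias between dyes, the mean of Ins1 was 0.269 and that of Sst 0.696. The means of Reg1, Ins2 and Sst kept their sign under all 51 alternatives run and those of Reg2, Reg3a and Ins1 under 50 of 51. Most of these alternatives left out 1 array or strain, some of them arrays without a value of the gene. The scores with signs not turned were also counted, though they measure the dyes. The counts are thus no measure of a stable response: with the sign of arrays 50, 53 and 97 turned, Reg1 kept its sign at only -0.0839. Leaving out 1 array or strain, the mean of Reg1 ran from -0.93 to -0.309. As deposited, 31 probes were called instead of 0 (30 of them positive), and the other 14 alternatives called 0 in limma, with 424 to 3518 unadjusted p under 0.05. As deposited, where arrays share an offset, the correlations with the Reg mean were 0.650 (Ins1), 0.646 (Ins2), 0.621 (Sst) and 0.944 (acinar median), and with arrays scaled the last was 0.911. In Cy5 arrays the hormones gave -0.0548, 0.202 and 0.194, in Cy3 arrays Ins2 gave -0.368, and with strain and orientation means removed Sst gave 0.209. The acinar correlation ran from 0.850 to 0.903 when 1 array or strain was left out. As deposited the list medians were 0.247 (islet), 0.0808 (receptors and signals) and 0.00612 (adipose). The adipose median was -0.00327 with the sign of arrays 50, 53 and 97 turned and -0.00263 with signs not turned. The causes were not tested.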
